A study of Mus musculus with 18 samples.

Results

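NMDA receptor subunit genes were followed across the embryonic and adult mouse forebrain, with and without the loss of one copy of Chd2, which encodes a chromatin remodeller. The members are Grin1, Grin2a, Grin2b, Grin2c, Grin2d and Grin3a, chosen by gene symbol, and make up 6 of the 24062 lines of the count table. Hippocampus was dissected from Chd2+/- (HET) and wild-type (WT) animals at P45, a postnatal age in days. The medial ganglionic eminence (MGE), the embryonic source of many cortical interneurons, and the cortex were dissected from HET and WT embryos at E13.5, an age in days of gestation. All animals were C57BL/6, and each of the 6 groups of tissue and genotype held 3 poly(A)-selected RNA libraries. No library combines hippocampus with the embryonic age, so differences between hippocampus and the embryonic tissues join age and region, which cannot be told apart here. In part of these comparisons sex differs as well, as given below. The labels do not say whether the libraries of a group come from separate animals, so the p-values speak of the spread between libraries, which may be technical.

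NMDA receptors are glutamate-gated channels built from obligatory subunits encoded by Grin1 together with subunits of the Grin2 and Grin3 families. They open when glutamate and a co-agonist such as glycine bind, and they pass more current when the membrane is depolarised. The calcium they pass drives changes in synaptic strength. Grin2 subunits set how long the channel stays open and which scaffold proteins it meets. In rodent forebrain the Grin2b and Grin2d subunits are known to come first in development, and Grin2a appears after birth.

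All 6 genes lie on the minus strand of mm10. Grin1, the obligatory subunit that binds glycine, spans chr2:25291181-25319187. Grin2a, the subunit of mature forebrain synapses, spans chr16:9567898-9995560. Grin2b, the subunit of the young forebrain, spans chr6:135713233-136173511. Grin2c, known from adult cerebellar granule cells and from glia, spans chr11:115249169-115267243. Grin2d, known from the embryonic brainstem and from interneurons, spans chr7:45831883-45878378, on the chromosome that also carries Chd2. Grin3a, a glycine-binding subunit that lowers calcium entry in juvenile synapses, spans chr4:49661611-49845744.

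The members are related in sequence, so it was asked whether their reads can be told apart. A well conserved part is the coding stretch at the end of the third membrane segment, which forms the gate of the channel. For 4 members, 36 bases of it are printed below from the GENCODE M21 coding transcripts (mm10, 5′ to 3′ on the minus strand), with the 20 bases shared by these 4 genes in capitals. The stretch lies in exon 15 of 21 of Grin1 (chr2:25297199-25297234), exon 10 of 14 of Grin2a (chr16:9653447-9653482), exon 11 of 15 of Grin2c (chr11:115253749-115253784) and exon 3 of 9 of Grin3a (chr4:49770470-49770505).
Grin1: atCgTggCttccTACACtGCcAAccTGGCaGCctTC
Grin2a: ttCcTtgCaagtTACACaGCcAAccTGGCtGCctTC
Grin2c: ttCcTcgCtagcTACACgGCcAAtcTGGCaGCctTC
Grin3a: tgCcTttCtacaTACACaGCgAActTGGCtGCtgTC
Grin2c matches Grin2a at 30 of the 36 bases, and Grin1 and Grin3a each at 27. Over whole transcripts of all 6 members, the longest run shared exactly by 2 members was 34 bases, between Grin2b and Grin2c, and the shortest such maximum was 13 bases, between Grin2d and Grin3a. Another overlap does touch Grin1. The antisense gene Grin1os shares 1307 of its 2891 exonic bases (45.2%) with Grin1 exons, and the sources used here do not say whether strand was used in counting. Without strand, reads over that overlap could not be assigned to one or the other. Grin1os stood at 15.03 ± 1.02 CPM in hippocampus HET libraries and 14.9 ± 1.49 CPM in hippocampus WT (SD, n = 3 each), far below Grin1.

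Promoter sequences were found for 3 members in the RefSeq table (GRCm38.p6), and the ones shown are Grin1 and Grin2c, which start at the same base in GENCODE and both stood far higher in hippocampus than in the embryonic tissues. Each run is the 250 bases before the start, 5′ to 3′ on the minus strand, chr2:25319188-25319437 for Grin1 and chr11:115267244-115267493 for Grin2c. Capitals mark GGGCGG or its complement CCGCCC, the GC box searched on both strands.
Grin1: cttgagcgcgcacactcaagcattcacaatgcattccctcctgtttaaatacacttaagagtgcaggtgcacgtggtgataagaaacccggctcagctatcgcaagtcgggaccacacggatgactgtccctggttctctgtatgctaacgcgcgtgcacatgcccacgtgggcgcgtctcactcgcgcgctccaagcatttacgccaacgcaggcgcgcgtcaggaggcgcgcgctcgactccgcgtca
Grin2c: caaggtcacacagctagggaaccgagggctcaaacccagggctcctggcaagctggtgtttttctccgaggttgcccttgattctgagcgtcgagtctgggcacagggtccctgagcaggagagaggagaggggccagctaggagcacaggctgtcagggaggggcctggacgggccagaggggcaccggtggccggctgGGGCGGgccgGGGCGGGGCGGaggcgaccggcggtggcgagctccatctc
Grin2c holds 3 GC boxes in this window and Grin1 none, beside a share of 32.7% of the 32851 promoter entries with at least 1. CG dinucleotides number 27 in the Grin1 window and 15 in the Grin2c window, against a median of 6 over all entries, and 8.56% and 27.3% of the entries hold at least as many. Grin2d, the other member with an entry, has no GC box and 9 CG dinucleotides in its window, and its RefSeq start lies 11697 bases from that of GENCODE.

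The libraries held 26841671 to 38802765 counts. Levels are given as CPM, read counts scaled to the size of each library, with TMM factors (trimmed mean of M-values) over all 18 libraries, and SDs are over 3 libraries. Chd2 was lower in all 9 HET libraries than in every WT library of the same tissue, with log2 fold changes of -0.17 in hippocampus, -0.24 in MGE and -0.22 in cortex. It was not called in any tissue (adjusted p = 0.191, 0.980 and 0.578 by edgeR), and 11.7%, 5.12% and 6.29% of all genes tested were likewise lower without overlap. The tissues carried their markers. The summed level of 9 interneuron genes was 1842 to 2121 CPM in MGE HET libraries and 1665 to 2132 CPM in MGE WT, against 17.6 to 59.6 CPM in cortex HET libraries and 41.0 to 64.2 CPM in cortex WT. The summed level of 6 excitatory neuron genes was 994 to 1739 CPM in cortex HET libraries and 1613 to 1913 CPM in cortex WT, and no more than 11.5 CPM in any MGE library. In bulk tissue, fewer cells of a type and less RNA per cell cannot be told apart. The cortex HET libraries were uneven. Cortex HET 3 differed from the other cortex HET libraries by 98.8 and 106 times counting noise, against 6.00 to 60.3 times for the other replicate pairs. This measure compares libraries within a group and does not say which of them are unusual. In the interneuron and excitatory sums cortex HET 3 (59.6 and 1739 CPM) lay within the cortex WT ranges. Cortex HET 1 (18.9 and 1120 CPM) and cortex HET 2 (17.6 and 994 CPM) lay below them. The genotype and tissue differences of the members that use cortex HET 3 are given with and without it.

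All 6 subunit genes stood higher in P45 hippocampus than in both E13.5 tissues, and how much higher differed greatly between them. In WT, the log2 fold change of hippocampus over cortex was 10.13 for Grin2a, 6.98 for Grin1, 6.07 for Grin2c, 4.97 for Grin3a, 4.37 for Grin2b and 3.97 for Grin2d. Over MGE it was 9.14 for Grin2c, 8.47 for Grin2a, 7.08 for Grin1, 5.26 for Grin2b, 1.66 for Grin2d and 1.35 for Grin3a. Genes were tested over the whole table with edgeR's quasi-likelihood test, and a gene was called at a Benjamini-Hochberg (BH) adjusted p under 0.05. All 6 members were called higher in hippocampus, with adjusted p at most 1.50e-08 against cortex and 1.48e-05 against MGE. The background was large: 41.1% of genes tested were called higher in hippocampus than in cortex, and 41.9% higher than in MGE. Grin2a passed the filter on low counts only through hippocampus, as did Grin2c against MGE, so their calls were bound to differ. In HET, 6 of 6 members were again called higher, against backgrounds of 38.8% over cortex and 41.9% over MGE, with log2 fold changes of 4.18 to 9.48 over cortex and 1.25 to 9.64 over MGE. Without cortex HET 3, Grin1, Grin2a, Grin2b, Grin2c, Grin2d and Grin3a were all still called higher than in cortex, by 4.47 (Grin2d) to 9.36 (Grin2a). Y-linked genes summed to no more than 0.10 CPM in every hippocampus and MGE WT library, against 212 to 260 CPM in the MGE HET libraries. Hippocampus minus MGE in HET therefore joins sex with age and region. Cortex HET and cortex WT each held libraries with and without these transcripts.

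**Figure D1:**
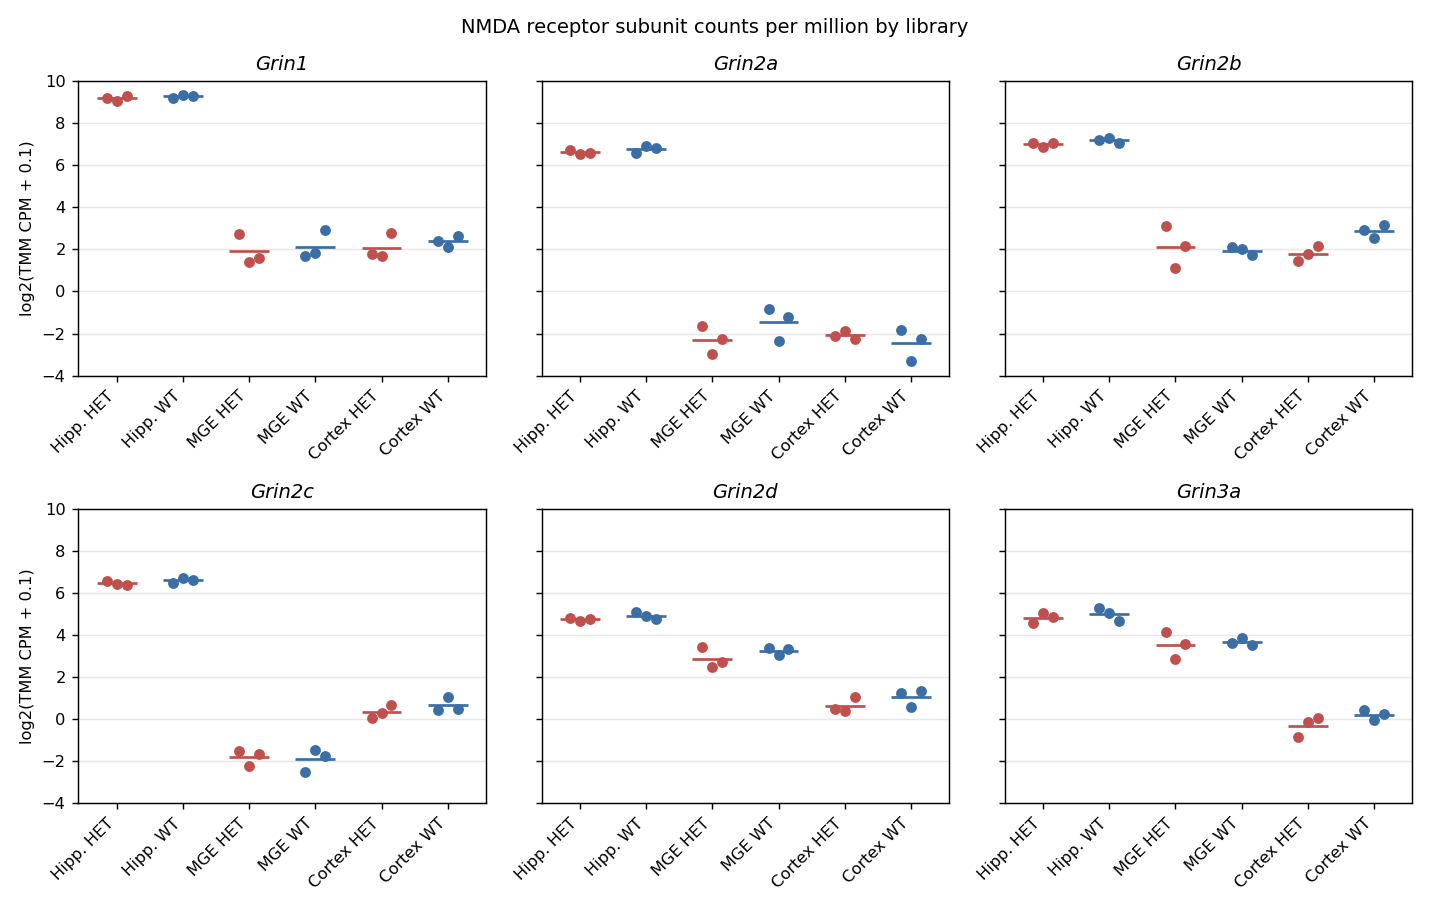
Level of each subunit gene in every library, as log2 of TMM-normalised CPM plus 0.1, with hippocampus (Hipp.) at P45 and MGE and cortex at E13.5. Points are libraries, bars are means over 3 libraries, and HET is red and WT blue. Hippocampus stands highest for every gene, and Grin2d and Grin3a stand higher in MGE than in cortex.

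Grin1 had the most counts of the family in hippocampus. It stood at 586, 527 and 622 CPM in hippocampus HET libraries and at 581, 650 and 631 CPM in hippocampus WT. The embryonic levels were 6.55, 2.53 and 2.93 CPM in MGE HET, 3.08, 3.41 and 7.41 CPM in MGE WT, 3.29, 3.15 and 6.75 CPM in cortex HET, and 5.13, 4.199 and 6.14 CPM in cortex WT. The 4 embryonic groups overlapped, with 1 library well above the other 2 in MGE HET, MGE WT and cortex HET. Grin1 was not called between MGE and cortex, with a log2 fold change of -0.15 (SE 0.34, BH-adjusted p = 0.745, edgeR) in WT and -0.15 (SE 0.44, BH-adjusted p = 0.829) in HET. Without cortex HET 3 the HET value turned to 0.32 (SE 0.42, BH-adjusted p = 0.614).

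Grin2a was close to the limit of detection in the embryo. It stood at 106, 91.1 and 95.8 CPM in hippocampus HET libraries and at 94.0, 121 and 114 CPM in hippocampus WT. In the embryo, the read counts were 8, 1 and 4 in MGE HET, 18, 3 and 10 in MGE WT, 4, 5 and 4 in cortex HET, and 6, 0 and 3 in cortex WT, all below 0.460 CPM. These counts are so low that Grin2a fell below the filter between genotypes in the embryo and between MGE and cortex. With no filter, the HET over WT log2 fold change of Grin2a was -1.30 in MGE (SE 0.81, BH-adjusted p = 0.937, edgeR) and 0.46 in cortex (SE 1.04, BH-adjusted p = 0.883). The fold changes of Grin2a against cortex WT rest on 9 counts over 3 libraries.

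Grin2b was read in every embryonic library, at 73 to 305 counts. It stood at 133, 115 and 134 CPM in hippocampus HET libraries and at 146, 158 and 132 CPM in hippocampus WT. It stood at 8.47, 2.05 and 4.31 CPM in MGE HET libraries and at 4.23, 3.89 and 3.17 CPM in MGE WT. In cortex it stood at 2.59, 3.29 and 4.35 CPM in HET libraries and at 7.51, 5.75 and 8.81 CPM in WT. Cortex WT had the highest embryonic level of Grin2b as a group, and MGE HET was the most scattered. MGE stood below cortex in WT, with a log2 fold change of -0.95 (SE 0.22, BH-adjusted p = 0.00411, edgeR), and the groups did not overlap, as for 29.7% of all genes tested that were lower in MGE. In HET the same comparison gave 0.53 (SE 0.47, BH-adjusted p = 0.435), with overlapping groups, and 0.75 (SE 0.60, BH-adjusted p = 0.392) without cortex HET 3. The difference of these differences is the genotype interaction given further on, and it was not called.

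The balance between Grin2a and Grin2b separated the stages completely. The log2 ratio of Grin2a to Grin2b counts, with 0.5 added to each, was -0.39 ± 0.15 in the 6 hippocampus libraries (SD) and lay between -0.63 and -0.21. In the 12 embryonic libraries it was -5.06 ± 1.41 and lay between -8.48 and -3.17. The difference of 4.67 corresponds to a 25.4-fold higher ratio in hippocampus, and an exact two-sided permutation test over the 18564 splits gave p = 5.39e-05, the smallest that these group sizes allow. Grin2a had only 0 to 18 counts in each embryonic library and passed the filter only through hippocampus. Full separation was therefore set beforehand, and the p adds no support. The test also treats MGE and cortex libraries of both genotypes as exchangeable. Since both counts come from the same library, scaling does not enter this ratio. The lowest value, in cortex WT 2, comes from a Grin2a count of 0 beside 178 for Grin2b.

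**Figure D2:**
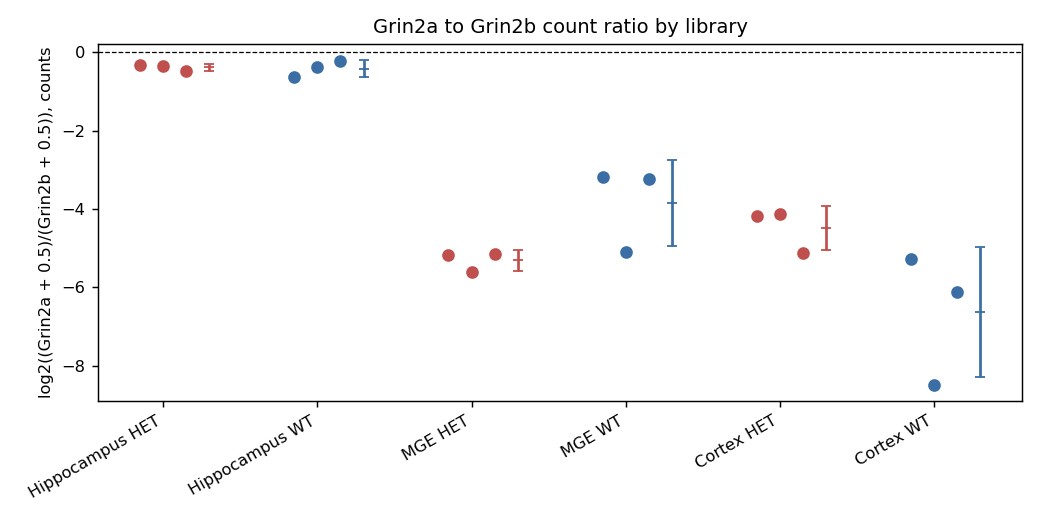
Log2 ratio of Grin2a to Grin2b counts (0.5 added to each) in every library, by group, HET red and WT blue. The bar beside each group is the mean ± SD over 3 libraries. The dashed line marks equal counts: hippocampus libraries lie between -0.63 and -0.21 and embryonic libraries below -3.1.

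The genotypes did not differ in this ratio in hippocampus by more than their spread. The mean log2 ratio was -0.38 ± 0.09 in hippocampus HET and -0.41 ± 0.21 in hippocampus WT (SD, n = 3 each), a difference of 0.03 (exact permutation p = 0.8). In the embryo it was -5.31 ± 0.26 in MGE HET and -3.84 ± 1.10 in MGE WT, and -4.48 ± 0.56 in cortex HET and -6.62 ± 1.67 in cortex WT. Both differences, -1.47 in MGE and 2.15 in cortex, had an exact permutation p = 0.1, the smallest that 3 against 3 libraries can give (0.10). Leaving out one library in turn moved the difference between -2.11 and -1.14 in MGE and between 1.22 and 2.83 in cortex. The lowest cortex value is the one without cortex WT 2, and without cortex HET 3 it was 2.47. The groups did not overlap in either tissue, yet the nearest libraries lay close together: -5.15 and -5.11 in MGE, and -5.12 and -5.26 in cortex. A log2 ratio in the embryo rests on 0 to 18 counts of Grin2a.

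Grin2c stood at 93.6, 86.0 and 82.2 CPM in hippocampus HET libraries and at 89.7, 104 and 98.7 CPM in hippocampus WT. It was near the limit of detection in MGE, with 9, 4 and 8 counts in MGE HET and 3, 8 and 6 counts in MGE WT. In cortex it stood at 0.926, 1.13 and 1.51 CPM in HET libraries and at 1.27, 1.97 and 1.30 CPM in WT. MGE therefore lay below cortex, with a log2 fold change of -3.10 in WT (SE 0.49, BH-adjusted p = 0.000491, edgeR) and -2.60 in HET (SE 0.44, BH-adjusted p = 0.00308), on at most 9 counts per MGE library. Without cortex HET 3 the HET value was -2.38 (BH-adjusted p = 0.00656). The summed level of 5 cerebellar granule cell genes was 4.6 CPM in each hippocampus HET library and 4.1 to 4.6 CPM in hippocampus WT. It was 12.5 to 17.04 CPM in MGE and 7.31 to 13.6 CPM in cortex. The mean log2 CPM of these 5 genes was low and alike in all groups. It was -1.38 in hippocampus HET and -1.46 in WT, -1.40 in MGE HET and -1.31 in WT, and -1.42 in cortex HET and -1.41 in WT. The part of these genes in the Grin2c difference was not tested. The summed level of 8 astrocyte genes was 4495 to 4763 CPM in hippocampus HET libraries and 4510 to 4961 CPM in hippocampus WT, against 134 to 206 CPM in MGE and 543 to 646 CPM in cortex. It moved with Grin2c between the tissues, and its part in the Grin2c difference was not tested.

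Grin2d and Grin3a were the members that stood higher in MGE than in cortex. Grin2d stood at 28.2, 24.9 and 27.3 CPM in hippocampus HET libraries and at 33.6, 29.5 and 27.3 CPM in hippocampus WT. In MGE it stood at 10.8, 5.47 and 6.37 CPM in HET libraries and at 10.4, 8.17 and 9.94 CPM in WT, and in cortex at 1.28, 1.198 and 1.98 CPM in HET libraries and at 1.39 to 2.42 CPM in WT. Every MGE library thus lay above every cortex library, as for 28.8% of genes tested in WT and 22.6% in HET, with a log2 fold change of 2.25 in WT (SE 0.24, BH-adjusted p = 2.99e-05, edgeR) and 2.33 in HET (SE 0.34, BH-adjusted p = 0.00149). The HET value was 2.61 (BH-adjusted p = 0.000673) without cortex HET 3.

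Grin3a stood at 23.8, 32.4 and 29.2 CPM in hippocampus HET libraries and at 38.7, 32.8 and 25.6 CPM in hippocampus WT. In MGE it stood at 17.6, 7.05 and 11.7 CPM in HET libraries and at 12.2, 14.5 and 11.5 CPM in WT. In cortex it stood at 0.447, 0.822 and 0.949 CPM in HET libraries and at 0.872 to 1.27 CPM in WT. MGE again lay above cortex without overlap, with a log2 fold change of 3.57 in WT (SE 0.21, BH-adjusted p = 5.37e-07, edgeR) and 4.02 in HET (SE 0.42, BH-adjusted p = 0.000245). Leaving out cortex HET 3 gave 4.26 in HET (BH-adjusted p = 0.00179). The background of genes called higher in MGE than in cortex was 24.9% in WT and 11.4% in HET, and that of genes called lower was 24.5% in WT and 14.6% in HET. Against it, 2 members were called higher in each genotype, and 2 (Grin2b and Grin2c) were called lower in WT and 1 (Grin2c) in HET, of 5 tested. Between MGE and cortex the interneuron genes moved the same way as Grin2d and Grin3a, and their part in the 2 differences was not tested. In hippocampus WT their summed level, 831 to 882 CPM, lay below the 1665 to 2132 CPM of MGE WT, while Grin2d and Grin3a stood higher. Their mean log2 CPM was 5.26 in hippocampus WT and 4.91 in MGE WT.

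Levels can be compared between genes only per length, and the order then depends partly on the length used. With all annotated exon bases as the length, the order in hippocampus was Grin1, Grin2c, Grin2a, Grin2b, Grin2d, Grin3a in both genotypes. With the coding length alone it was Grin1, Grin2b, Grin2c, Grin2a, Grin3a, Grin2d. Per kilobase of exon, Grin1 stood at 59.6 ± 4.93 CPM in hippocampus HET libraries and 64.0 ± 3.69 CPM in hippocampus WT (SD, n = 3 each), and Grin2c, next in order, at 17.3 ± 1.15 CPM in HET libraries and 19.4 ± 1.46 CPM in WT. Per coding kilobase, Grin1 stood at 201 ± 16.6 CPM in HET libraries and 216 ± 12.4 CPM in WT, and Grin2b, next, at 28.6 ± 2.41 CPM in HET libraries and 32.7 ± 2.88 CPM in WT. Grin1 led by either length, while the places of Grin2a, Grin2b and Grin2c changed with it. Which annotation was counted is not stated in the sources used here.

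Between the embryonic tissues the order differed. In MGE, Grin2d and Grin3a held the highest level by either length, at 1.13 ± 0.43 and 0.987 ± 0.43 CPM per kilobase of exon in HET and 1.43 ± 0.18 and 1.04 ± 0.13 CPM in WT. These neighbours overlapped within their SDs in HET, and their order turned round per coding kilobase. Grin1 was next at 0.413 ± 0.23 CPM in MGE HET libraries and 0.478 ± 0.25 CPM in MGE WT. In cortex Grin1 came first, at 0.453 ± 0.21 CPM per kilobase of exon in HET and 0.531 ± 0.10 CPM in WT. Grin2a came last in cortex by either length, and in MGE it shared the lowest level with Grin2c.

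As a share of the 4 Grin2 levels per kilobase of exon, Grin2d made up 83.3% ± 4.61 in MGE HET and 87.4% ± 2.00 in MGE WT (SD, n = 3 each). Per coding kilobase the Grin2d share was 63.8% ± 8.57 in MGE HET and 71.3% ± 3.44 in MGE WT. In hippocampus it was 12.6% ± 0.47 in HET and 12.7% ± 1.88 in WT per kilobase of exon. Grin2b made up 22.7% ± 1.43 in cortex HET and 32.5% ± 4.24 in cortex WT per kilobase of exon, and 51.3% ± 2.09 in HET and 63.5% ± 3.70 in WT per coding kilobase. The Grin2b share was thus lower in cortex HET by either length, and the libraries of the 2 genotypes did not overlap, though no test was run on the share. The value of cortex HET 3 lay between those of cortex HET 1 and 2, which were 21.4% and 24.2% per kilobase of exon and 49.2% and 53.4% per coding kilobase.

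With the loss of one Chd2 copy, no subunit gene passed the test in any tissue. In hippocampus, 0 of 6 members were called, against a background of 1.07% of genes tested (0.811% called lower). All 6 fold changes lay below 0, between -0.19 for Grin2b and -0.10 for Grin1, and in all 6 the HET and WT libraries overlapped, where 20.8% of all genes tested had no overlap. The median over the 6 members was -0.17, beside 0.00 over all genes tested. Grin2b had a log2 fold change of -0.19 (SE 0.08, BH-adjusted p = 0.281, edgeR; unadjusted p = 0.0354), and Grin2c one of -0.16 (SE 0.07, BH-adjusted p = 0.304; unadjusted p = 0.0446). The remaining members had adjusted p of 0.410 to 0.672. The pan-neuronal level, the mean log2 CPM of 10 genes of all neurons, was 8.34 to 8.35 in hippocampus HET and 8.25 to 8.35 in hippocampus WT. Other cell type lists differed more. The 5 endothelial genes all lay below 0, 1 of them called lower, with a median log2 fold change of -0.41, and had a summed level of 70.3 to 81.2 CPM in HET libraries, against 109 to 115 CPM in WT libraries. Of 6 oligodendrocyte genes, 5 lay above 0 and none was called, with a median of 0.30, and their summed level was 6866 to 10095 CPM in HET libraries, against 6420 to 8133 CPM in WT libraries. The part of these lists in the values of the members was not tested.

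In MGE, 0 of the 4 tested members were called, against a background of 0.0479%, and all 4 overlapped between genotypes, where 10.3% of genes tested did not. The log2 fold changes were 0.37 for Grin2b (SE 0.46), -0.35 for Grin2d (SE 0.24), -0.22 for Grin1 (SE 0.47) and -0.09 for Grin3a (SE 0.30), with adjusted p of 0.980 to 0.988 by edgeR. MGE HET 1 was the highest of its group for Grin1, Grin2b, Grin2d and Grin3a, and MGE HET 2 the lowest for all 4. Within MGE HET the pan-neuronal level ran the same way, at 7.46, 6.67 and 7.13 in MGE HET 1, 2 and 3. It was 6.996, 7.09 and 7.34 in MGE WT 1, 2 and 3. There Grin1 rose with it (3.08, 3.41 and 7.41 CPM) and Grin2b fell (4.23, 3.89 and 3.17 CPM). Grin2d was highest in MGE WT 1 and Grin3a in MGE WT 2. The part of this level in the values of the members was not tested. All 3 MGE HET libraries carried Y-linked transcripts, at 212 to 260 summed CPM over 4 genes, and all 3 MGE WT libraries had no more than 0.10 CPM of them. Sex and genotype cannot be told apart in MGE.

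**Figure D3:**
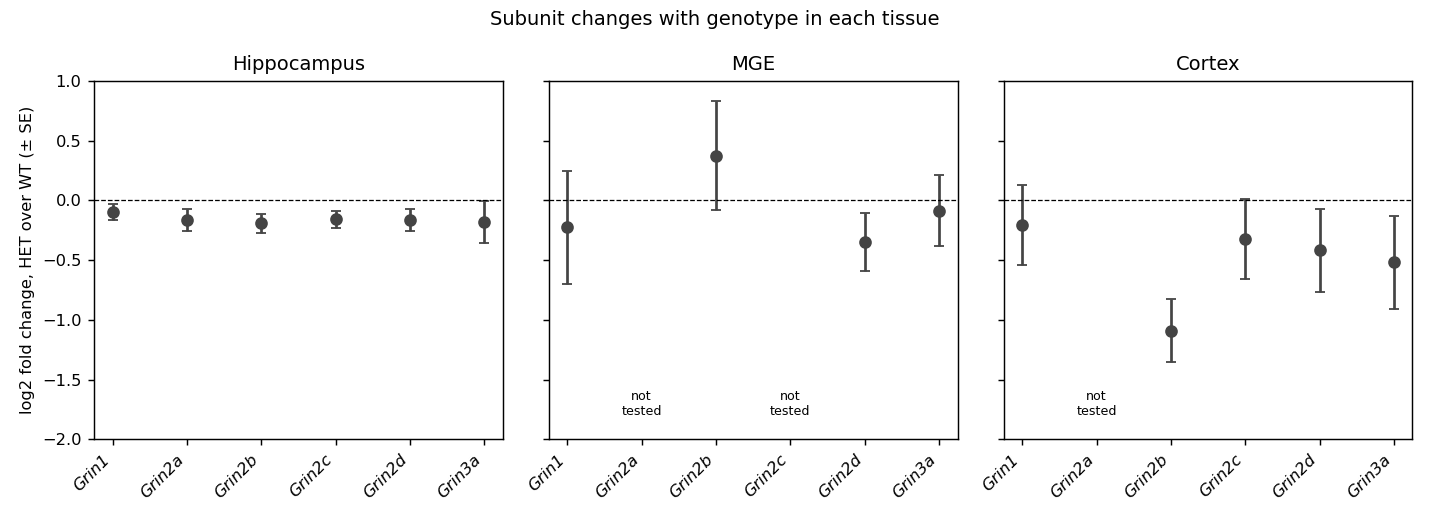
Log2 fold change of HET over WT for each subunit gene in hippocampus, MGE and cortex, with SE from edgeR. Genes below the filter on low counts are marked as not tested. The 6 hippocampus values lie between -0.19 and -0.10, and Grin2b in cortex is the lowest value, at -1.09.

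In cortex, 0 of the 5 tested members were called, against a background of 0% with edgeR, where 1165 of 14757 genes had an unadjusted p under 0.05 and DESeq2 called 11 genes. All 5 fold changes lay below 0. Grin2b had the largest, with a log2 fold change of -1.09 (SE 0.26, BH-adjusted p = 0.578, unadjusted p = 0.00346), which places it at rank 19 by p among all genes tested. Its 3 HET libraries, at 2.59, 3.29 and 4.35 CPM, all lay below its 3 WT libraries, at 7.51, 5.75 and 8.81 CPM. Groups without overlap were found for 1 of the 5 members, against 6.29% of all genes tested that were lower without overlap. The adjusted p of Grin2b ran between 0.00432 and 0.996 over 15 alternatives, all with a fold change below 0. It passed the threshold in one of them, without cortex HET 3, where the log2 fold change was -1.30 (SE 0.25, BH-adjusted p = 0.00432) and 4598 genes in all were called, 30.7% of those tested. That fit keeps cortex HET 1 and 2, the libraries that lay below cortex WT in the interneuron and excitatory sums. With cortex HET 3 as the one HET library, an alternative chosen after seeing the data, it was -0.75 (SE 0.31, BH-adjusted p = 0.763).

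The other cortex members had smaller fold changes. The log2 fold changes were -0.52 for Grin3a (SE 0.39), -0.42 for Grin2d (SE 0.35), -0.33 for Grin2c (SE 0.34) and -0.21 for Grin1 (SE 0.33), with adjusted p of 0.612 to 0.802 by edgeR and overlapping groups. One library moved these values by more than 1.5 times. Leaving out each in turn gave -0.74 to -0.29 for Grin3a, -0.68 to -0.27 for Grin2d, -0.53 to -0.0969 for Grin2c and -0.66 to -0.0391 for Grin1. The lowest value of each is the one without cortex HET 3, with adjusted p = 0.269 for Grin3a, 0.207 for Grin2d, 0.340 for Grin2c and 0.0693 for Grin1. The values nearest 0 are those without cortex HET 1 for Grin3a, cortex WT 3 for Grin2d, cortex WT 2 for Grin2c and cortex HET 2 for Grin1. The cortex HET libraries differed in the level of neuronal genes. The pan-neuronal level was 6.83, 6.80 and 7.31 in cortex HET 1, 2 and 3, against 7.14, 7.14 and 7.26 in cortex WT 1, 2 and 3. The 9 interneuron genes summed to 18.9, 17.6 and 59.6 CPM in cortex HET 1, 2 and 3, against 55.1, 41.0 and 64.2 CPM in cortex WT. The 5 choroid plexus genes summed to 10.2 to 436 CPM in cortex HET and 4.33 to 1539 CPM in cortex WT, with high and low libraries in both genotypes. With the pan-neuronal level as a covariate, Grin2b had a log2 fold change of -0.86 (SE 0.25, BH-adjusted p = 0.489), and Grin1 one of 0.15. The part of neuronal content in the Grin2b difference was not tested further.

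**Figure D4:**
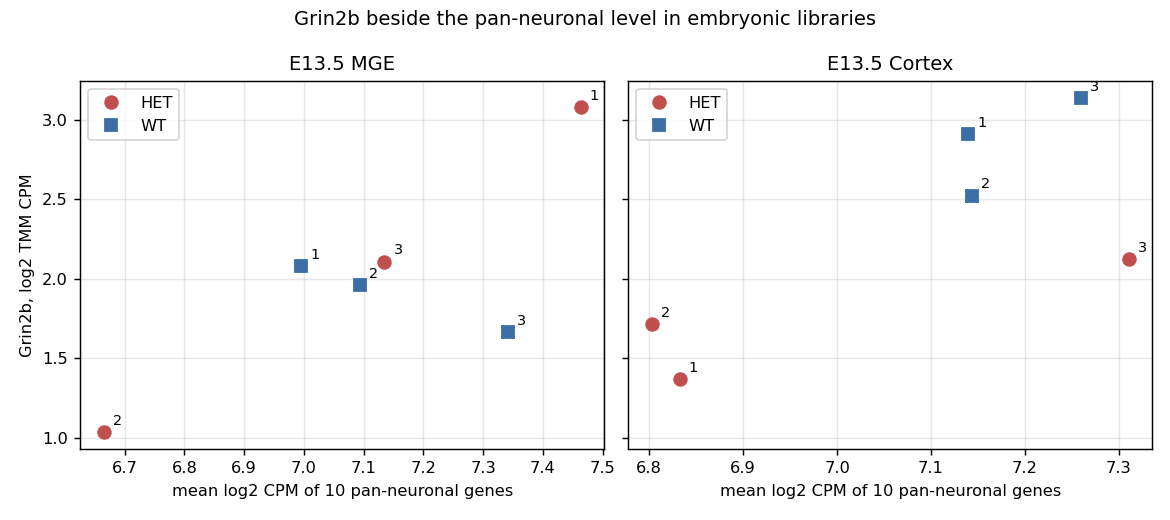
Grin2b level (log2 TMM-normalised CPM) against the mean log2 CPM of 10 pan-neuronal genes in the embryonic libraries, numbered by replicate, HET as red circles and WT as blue squares. In cortex the 3 HET libraries lie below the 3 WT libraries in Grin2b, and the pan-neuronal level runs from 6.80 to 7.31 in HET and 7.14 to 7.26 in WT. In MGE the genotypes overlap.

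The genotype difference of each member was also compared between tissues in one fit of all 18 libraries. None of the 6 members was called in any of the 3 comparisons, against backgrounds of 0.0124% for hippocampus minus cortex, 0.00620% for hippocampus minus MGE and 0% for MGE minus cortex. The largest for Grin2b was MGE minus cortex, at 1.47 (SE 0.47, unadjusted p = 0.00695, adjusted p = 0.710, edgeR). For hippocampus minus cortex it was 0.90 (SE 0.44, BH-adjusted p = 0.394). Without cortex HET 3 these were 1.71 (BH-adjusted p = 0.0761) and 1.15 (BH-adjusted p = 0.128), again not called. The comparisons share libraries and are not independent of each other.

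Between tissues, the partners of the receptor stood higher in hippocampus in some roles and lower in others. The list holds 58 genes in 8 roles, of which 55 were tested. It was chosen from general knowledge, but with earlier results of these data known, so it is not independent of them. In WT, 33 were called higher and 19 lower in hippocampus than in cortex (backgrounds 41.1% higher and 40.9% lower), 35 higher and 17 lower than in MGE (41.9% and 41.7%), and 16 higher and 16 lower in MGE than in cortex (24.9% and 24.5%). The median log2 fold change of the partners was 1.08 over cortex and 1.27 over MGE, beside 0.00 over all genes tested in both.

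Most scaffolds and kinases were called higher in hippocampus, where the background of all genes was the 41.1% and 41.9% just given. Of 4 MAGUK scaffolds, which anchor the receptor at the synapse, 3 were called higher than in cortex and 4 higher than in MGE. Dlg4, which encodes PSD-95, stood at 979 ± 65.1 CPM in hippocampus WT, 100.1 ± 4.55 CPM in MGE WT and 113 ± 1.14 CPM in cortex WT (SD, n = 3 each). Of 14 kinases and phosphatases, 12 were called higher and 2 lower than in cortex, and 11 higher and 2 lower than in MGE. Camk2a, the kinase that docks on Grin2b, stood at 6156 ± 453 CPM in hippocampus WT, 47.6 ± 7.46 CPM in MGE WT and 13.1 ± 1.63 CPM in cortex WT, and was also called higher in MGE than in cortex, by 1.88 on the log2 scale (SE 0.13, BH-adjusted p = 1.70e-06, edgeR).

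Trafficking and co-agonist genes divided, and calcium signalling genes were mostly called higher. The background against cortex was 41.1% of all genes called higher and 40.9% lower, and the co-agonist shares lay near it. Of 9 trafficking and auxiliary genes, 6 were called higher and 3 lower in hippocampus than in cortex, led by Kif17, the motor that carries Grin2b vesicles (log2 fold change 5.45, SE 0.19), and Neto1, an auxiliary subunit (5.09, SE 0.23). Of 8 genes of downstream calcium signalling, 7 were called higher and 1 lower. Rasgrf1, a calcium-dependent exchange factor for Ras, stood at 786 ± 77.6 CPM in hippocampus WT and 6.14 ± 0.47 CPM in cortex WT. Of 7 tested genes of co-agonist supply, 3 were called higher and 3 lower than in cortex, with Slc7a10, a transporter of D-serine and other small amino acids, higher by 3.04 (SE 0.24) and the glycine transporter Slc6a9 by 2.90 (SE 0.12).

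Most regulators were called lower. Of 7 transcription regulators linked to subunit genes, 6 were called lower in hippocampus than in cortex and 1 higher. Rest, a repressor of neuronal genes, stood at 3.74 ± 0.23 CPM in hippocampus WT, 14.9 ± 2.64 CPM in MGE WT and 18.8 ± 1.82 CPM in cortex WT. Tbr1, a factor of cortical glutamatergic neurons, stood at 56.7 ± 5.72 CPM in hippocampus WT, 1.97 ± 1.18 CPM in MGE WT and 282 ± 56.8 CPM in cortex WT. Of 5 tested modulatory ligands and receptors, 1 was called higher in hippocampus than in cortex, Erbb4 (1.81, SE 0.32), and 3 lower, with Nrg1, a ligand of Erbb4, at -2.79 (SE 0.23). Grin3b, the remaining subunit gene of the family, is no member of the 6. It stood at 1.72 ± 0.62 CPM in hippocampus WT, 3.18 ± 0.63 CPM in MGE WT and 3.04 ± 0.64 CPM in cortex WT. It was called lower in hippocampus than in MGE (log2 fold change -0.89, SE 0.29, BH-adjusted p = 0.0154, edgeR). Against cortex the call was just under the threshold (-0.76, SE 0.32, BH-adjusted p = 0.0491), at a low level throughout.

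**Figure D5:**
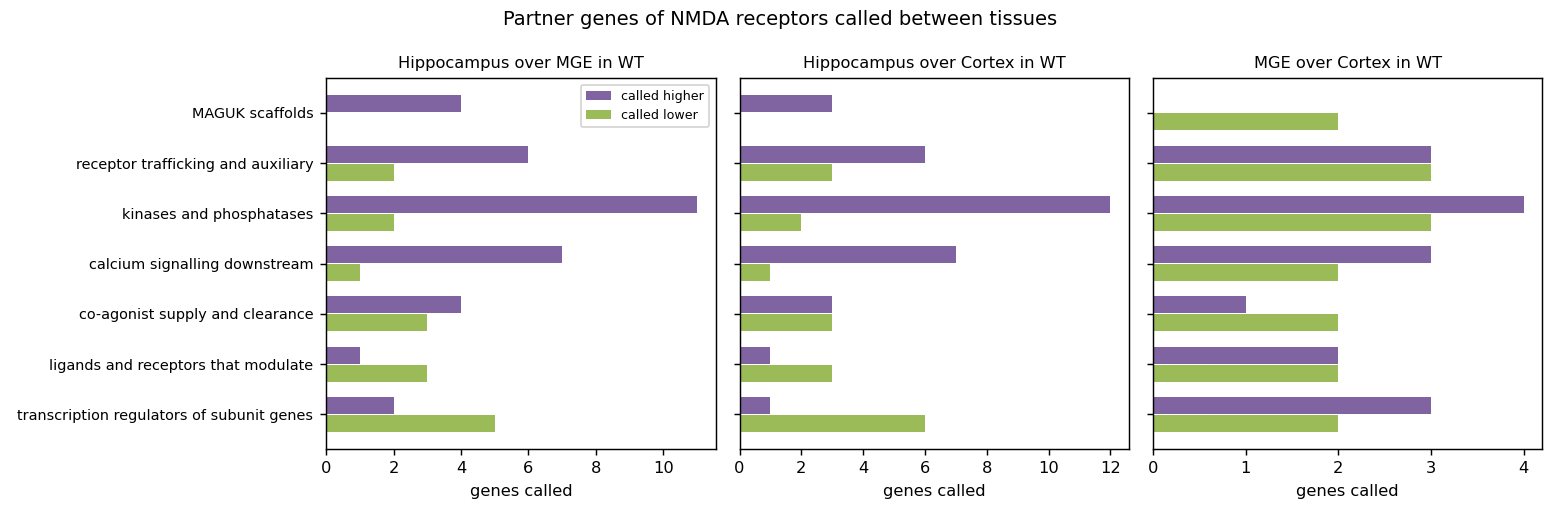
Number of partner genes called higher (purple) or lower (green) by edgeR in WT, by role, for hippocampus over MGE, hippocampus over cortex and MGE over cortex. MAGUK scaffolds, kinases and calcium signalling are mostly higher in hippocampus, and transcription regulators mostly lower, with 6 of 7 lower than in cortex.

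None of the 55 tested partners was called between genotypes in any tissue by edgeR with all libraries. An unadjusted p under 0.05 was found for 10 in hippocampus (18.2%), 4 in MGE (7.27%) and 4 in cortex (7.27%), beside 15.6%, 4.51% and 7.89% of all genes tested, so the shares lay near the background. The cortex count of called partners rests on cortex HET 3. With that library left out, an alternative added after seeing the data, 29 of 55 partners were called, 14 higher and 15 lower, where 30.7% of all genes tested were called. Of the partners described above, edgeR called Dlg4 (log2 fold change -0.41, adjusted p = 0.00151), Neto1 (-1.45, adjusted p = 0.00817) and Rasgrf1 (-1.01, adjusted p = 0.00656) lower. It called Rest (0.61, adjusted p = 0.00445), Slc6a9 (0.60, adjusted p = 0.0198) and Camk2a (0.57, adjusted p = 0.0173) higher. Kif17, Slc7a10, Tbr1, Erbb4, Nrg1 and Grin3b were not called. The HET libraries left, cortex HET 1 and 2, had pan-neuronal levels of 6.83 and 6.80, against 7.14 to 7.26 in cortex WT. The part of this level was not tested. With all libraries and by lowest p, the first partner in hippocampus was Reln, a secreted glycoprotein that modulates the receptor, at 76.7, 78.7 and 74.4 CPM in HET libraries and 83.8, 90.5 and 90.9 CPM in WT (log2 fold change -0.20, SE 0.06, adjusted p = 0.120). In cortex the 3 with the lowest p were Phgdh, Slc1a4 and Psat1, of which Phgdh and Psat1 are enzymes of serine synthesis and Slc1a4 a serine transporter, with log2 fold changes of 0.29, 0.29 and 0.36 and adjusted p = 0.578 each. In MGE the lowest p was that of Nos1, the neuronal nitric oxide synthase, at 1.53, 1.18 and 0.38 CPM in HET libraries and 1.83, 3.18 and 2.59 CPM in WT (log2 fold change -1.31, SE 0.44, adjusted p = 0.980).

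How alike the members ran over the 18 libraries is given as a description, since the points share tissues. Grin1, Grin2a, Grin2b and Grin2c correlated with each other at Pearson r between 0.925 and 0.986 on log2 CPM, and Grin2d correlated with Grin3a at 0.972. Between these sets, Grin2d correlated with Grin2a at 0.845, Grin1 at 0.812, Grin2b at 0.796 and Grin2c at 0.622, and Grin3a with them at 0.723, 0.681, 0.670 and 0.469. Without cortex HET 3 the lowest was 0.473. Among 12035 other genes, the ones whose pattern was most like that of Grin1 were Ndrg4 (r = 0.998), Gabbr2 and Agtpbp1. For Grin2a they were Fam134b (0.994), Endod1 and Slc4a4, and for Grin2b Pclo (0.994), Zbtb4 and Clvs2. For Grin2c they were Nsmf (0.998), Thy1 and C1ql3. For Grin2d they were Tub (0.991), Meg3 and Kndc1, and for Grin3a they include Stk32c (0.985) and Nrxn3.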

How the data were processed

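RNA was measured by poly(A)-selected sequencing in 18 mouse libraries, 3 in each of 6 groups. Per the submitters' processing notes, FastQC, Trimmomatic, TopHat2 2.1.1, SAMtools and DESeq2 were used on build mm10. The deposited table holds raw counts per gene symbol, while the program, annotation and strand option used for counting are not stated in the sources used here. Calendar dates fill 27 lines of the table, with 0.247 to 0.297% of a library's counts, and stay in the totals and the tests.

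Each comparison was fitted on the whole table of its libraries with edgeR 4.0.16 in R 4.3.3 (filterByExpr with a minimum count of 10 and a minimum total of 15, TMM, robust quasi-likelihood test, Benjamini-Hochberg adjustment, threshold 0.05). Genotype differences between tissues came from one fit of all 18 libraries. The Grin2a to Grin2b ratio, with 0.5 added to each count, was tested by exact two-sided permutation over libraries. The test of its genotype difference between tissues was chosen after its values were seen. Levels per length used GENCODE M21 exon bases or coding bases. Among partners, the text names by rule the 4 with the lowest p in each genotype comparison and up to 2 per role between tissues, and gives some of these. Some genes and sequences are not reported here. The most alike genes are the 3 with the highest Pearson r among genes whose log2 CPM averages 1 or more.

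The members and lists were chosen with earlier results of these data known. Results were recomputed with upper-quartile or RLE scaling, without the filter, with DESeq2 1.42.0 and limma-voom (limma 3.58.1), in one joint fit, with replicate number as a blocking factor, with pan-neuronal and Y-linked levels as covariates, and without each library in turn. The edgeR, limma-voom and DESeq2 steps were tested on simulated data. Deviations of same-numbered libraries correlated above 0.1 for all 3 numbers in 1 comparison, hippocampus minus MGE in HET (r = 0.149, 0.298 and 0.128). There the same number was not always the best match. It was the best match throughout for MGE minus cortex in WT (r = 0.0982, 0.192 and 0.316) and hippocampus minus cortex in WT (r = 0.0387, 0.0798 and 0.116). For cortex HET minus WT the values were -0.080, 0.450 and 0.435, and the same number was not always the best match. No label ties the numbers to animals.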

Additional observations from a re-analysis of the deposited data

Results flagged for a closer look

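The genotype difference in the log2 ratio of Grin2a to Grin2b ran in opposite directions in the embryonic tissues, which is why it is singled out. It was -1.47 in MGE, with all 3 HET libraries below all 3 WT libraries, and 2.15 in cortex, with all 3 HET libraries above all 3 WT libraries. MGE minus cortex was -3.62. Permuting the genotype labels within each tissue gave an exact two-sided p = 0.005 over 400 splits (adjusted p = 0.015 over the 3 tissue pairs). The test was chosen after the values were seen. With both tissues already fully separated in opposite directions, p could only be the smallest that the 400 splits allow, so it adds no support. The same permutation gave -2.12 for hippocampus minus cortex (exact p = 0.1) and 1.505 for hippocampus minus MGE (exact p = 0.105). In MGE the difference joins genotype and sex, which cannot be told apart there. The nearest MGE libraries lay at -5.15 in HET and -5.11 in WT. Grin2a itself had 13 counts in MGE HET and 31 in MGE WT, and 13 in cortex HET and 9 in cortex WT. In the one fit of all 18 libraries, neither gene was called for MGE minus cortex by edgeR, with -1.78 (SE 0.99, adjusted p = 0.732) for Grin2a and 1.47 (SE 0.47, adjusted p = 0.710) for Grin2b. Grin2b was lower in cortex HET 1 and 2 together with the pan-neuronal level. In cortex HET 3 Grin2b stood at 4.35 CPM, also below the WT libraries at 5.75 to 8.81 CPM. The pan-neuronal level of cortex HET 3 was 7.31, against 7.14 to 7.26 in cortex WT. The part of neuronal content in the ratio was not tested.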

How the results depend on the processing

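All 6 members stood higher in hippocampus than in both embryonic tissues under every alternative run, and no member was called between genotypes except Grin2b in cortex without cortex HET 3, as given above. The counts of all genes called between genotypes by edgeR moved more. Hippocampus had 164, against 291 without a filter, 445 with DESeq2, 11 in one fit of all 18 libraries, 36 with the pan-neuronal and 86 with the Y-linked covariate, and 23 to 292 without one library. With the replicate number as a block it had 80, and the block changed no call of a member. No hippocampus library had more than 0.10 summed CPM of Y-linked genes, so the Y-linked covariate there held only values near 0. The count of 86 is therefore no adjustment for sex. In cortex, HET 1, HET 3 and WT 1 had 219 to 240 CPM of these genes, and HET 2, WT 2 and WT 3 no more than 0.10. MGE had 7, against 33 with DESeq2 and 5 to 27 without one library. Cortex had 0 (1165 at an unadjusted p under 0.05), against 1 without a filter, 11 with DESeq2, 4 in one fit of all libraries, 2 with the pan-neuronal covariate, 1 with cortex HET 3 as the one HET library, and 0 to 4598 without one library. For MGE minus cortex in HET the count was 3846, against 6612 in one fit of all libraries and 2204 to 4680 without one. For the genotype effect, hippocampus minus cortex had 2, against 77 with DESeq2 and 1 to 2791 without one library. Hippocampus minus MGE had 1, against 2 with upper-quartile scaling, 38 with DESeq2, 3 with limma-voom and 1 to 12 without one library. MGE minus cortex had 0 with edgeR, against 14 with DESeq2 and 0 to 1044 without one library. The causes were not tested.

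Some uncalled values turned their sign. In cortex, Grin1 was 0.15 with the pan-neuronal covariate and 0.40 with cortex HET 3 as the one HET library, where Grin2c was 0.00167. In the genotype effect of MGE minus cortex, Grin1 was 0.0115 without a filter, 0.0536 with limma-voom and 0.0653 with the replicate block, and Grin2d was -0.00815 with limma-voom. Leaving out one library in turn moved MGE HET minus WT from -0.77 to 0.29 for Grin1, -0.25 to 0.75 for Grin2b and -0.45 to 0.19 for Grin3a. It moved MGE minus cortex from -0.65 to 0.0728 for Grin1 in WT, and in HET from -0.69 to 0.32 for Grin1 and -0.10 to 0.90 for Grin2b. It moved the genotype effect of hippocampus minus cortex from -0.0868 to 0.60 for Grin1 and -0.0654 to 0.42 for Grin2c, that of hippocampus minus MGE from -0.39 to 0.65 for Grin1, -0.93 to 0.0558 for Grin2b, -0.73 to 0.0841 for Grin2c, -0.00358 to 0.52 for Grin2d and -0.37 to 0.26 for Grin3a, and that of MGE minus cortex from -0.55 to 0.49 for Grin1 and -0.27 to 0.37 for Grin2d. Without one library, the Grin2a to Grin2b ratio of hippocampus HET minus WT ran from -0.0827 to 0.13, and the genotype difference in it from -2.80 to -1.19 for hippocampus minus cortex, 1.17 to 2.14 for hippocampus minus MGE and -4.30 to -2.69 for MGE minus cortex. In the embryo, the low counts of Grin2a, 0 to 18 per library, limit every statement on it.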
